A study of Mus musculus with 9 samples.

Results

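Bone marrow-derived macrophages that lack MKP5 were compared with wild-type (WT) macrophages after both had been kept with oxidized low-density lipoprotein (ox-LDL), across all genes. The comparison used 6 of the 9 libraries of the series, chosen by their labels: 3 libraries labelled MKP5-/- at 24 h (MKP5-KO) and 3 labelled WT at 24 h. All cells came from mice with a C57BL/6 strain background and had grown for 7 days with 15% of the supernatant of L-929 added, a mouse fibroblast line that secretes the macrophage growth factor M-CSF. Both genotypes received 20 µg/mL of ox-LDL, a modified lipoprotein that macrophages of atherosclerotic plaques take up. The 3 remaining libraries, WT at 0 h, shared the estimate of the spread and are given as a second reference level where useful. Neither knockout cells before ox-LDL nor cells cultured as long without it were analysed here, so a difference that the genotypes had before ox-LDL and one that ox-LDL brought out cannot be told apart. The labels give neither the allele, nor the sex of the mice, nor whether the 3 libraries of a group came from separate animals, so p-values measure the spread between these libraries.

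MKP5, encoded by Dusp10, is a dual-specificity phosphatase: it removes the phosphates that switch on the stress-activated MAP kinases p38 and JNK. These kinases, and the related ERK pathway, act on transcription factors of the AP-1 and EGR families, whose genes are themselves induced within minutes of a stimulus and are known as immediate early genes. In macrophages, MAP kinase signals bear on cytokine output, on the choice between proliferation and rest, on fusion into multinucleated cells and on the handling of lipid.

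Reads recovered from the deposited values numbered 17384578, 18672723 and 19811876 in the WT libraries at 24 h, against 11102776, 13370914 and 14327960 in MKP5-KO, so the knockout libraries were the shallowest. Levels are given as CPM, reads per 1000000 of the scaled library size, with SD and n = 3 per group, and differences as log2 of MKP5-KO over WT on the deposited scale. A gene was called higher or lower at an adjusted p under 0.05 (limma with Benjamini-Hochberg adjustment over 14749 tested genes). The first principal component of the 6 libraries held 53.9% of the variance and placed WT at -39 to -27.4 and MKP5-KO at 28.5 to 47.5. On the second, with 17.7%, MKP5-KO replicate 1 stood at 35.8 and the other two at -18.7 and -28.5. Macrophage genes were abundant: in WT and MKP5-KO the F4/80 gene Adgre1 stood at 1903 ± 86.5 and 2063 ± 145 CPM and Csf1r, the M-CSF receptor, at 3262 ± 326 and 2623 ± 175. The summed T, B and NK cell markers stood at 3.94 to 6.85 CPM in the 6 libraries at 24 h. In such bulk samples, fewer cells of a type and less RNA per cell cannot be told apart.

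Dusp10 itself had 43, 38 and 40 reads in the WT libraries and 4, 6 and 4 in MKP5-KO, levels of 1.87 ± 0.2 and 0.307 ± 0.0739 CPM. All 3 knockout libraries lay below all 3 WT libraries, with a 5.65-fold lower level (log2 difference -2.50, SE 0.26, adjusted p = 9.55e-05). Which exons the allele removes is not given in the sources used here, and the few reads that remained were not assigned to exons.

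In all, 4215 of the 14749 tested genes were called (28.6%), 1734 of them higher in MKP5-KO (11.8%) and 2481 lower (16.8%). These shares are the ones to set beside every count by list below. Groups that did not overlap were found for 6621 tested genes (44.9%), with MKP5-KO higher in 2746 (18.6%) and lower in 3875 (26.3%). Statements below that groups did not overlap are to be set beside these shares. Of the called genes, 564 were at least 2-fold higher (3.82% of tested genes) and 254 at least 2-fold lower (1.72%). The balance changed with the size of the difference in both directions: at log2 differences of 0.25 to 0.5, 493 were higher and 1160 lower, at 1 to 2, 495 were higher and 163 lower, and at 2 or more, 69 were higher and 91 lower. The median difference of the called genes was 0.639 on the log2 scale for those higher and 0.384 for those lower. Among genes at 20 to 100 CPM 1222 were lower and 486 higher, whereas at 1 to 5 CPM 389 were higher and 194 lower. With upper-quartile scaling 2111 genes were higher and 2024 lower, so the excess of decreases depended on the scaling. Without WT 24 h replicate 2 the lower calls numbered 1645.

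**Figure D1:**
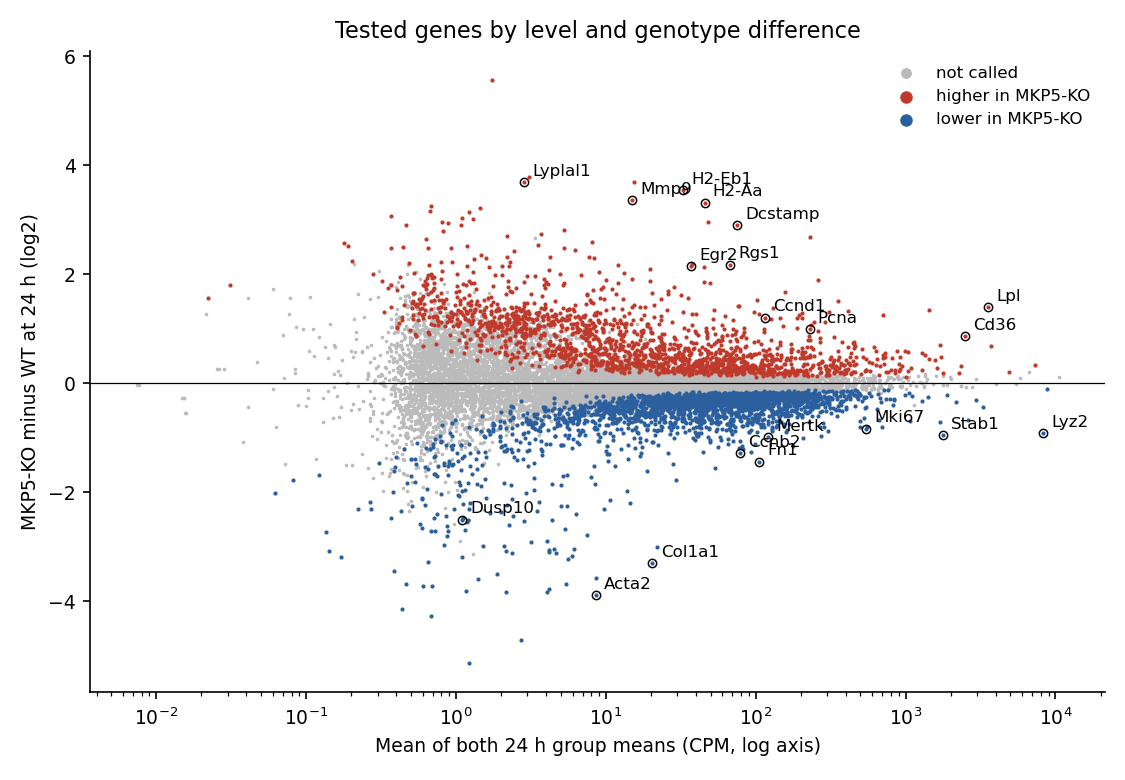
Each point is 1 tested gene; the horizontal axis gives the mean of the WT and MKP5-KO group means at 24 h in CPM (log axis) and the vertical axis the log2 difference, MKP5-KO minus WT. Red points (1734) were called higher and blue points (2481) lower in MKP5-KO; the blue points crowd close to 0 among abundant genes, while the red points reach 2-fold and more over the whole range of levels.

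Several other phosphatases of MAP kinases were higher. Of 13 tested MAP kinase phosphatase genes, 6 were higher and 3 lower in MKP5-KO, a share of 69.2% called beside 28.6% over all genes. The call of Dusp10, the targeted gene, is part of that share. Dusp1, a nuclear phosphatase of p38 and JNK that is induced by the kinases it silences, stood at 35.2, 34.7 and 28 CPM in WT and 59.9, 65 and 59.3 in MKP5-KO (log2 difference 0.92, SE 0.09, adjusted p = 5.59e-05). Dusp4, which acts on ERK and JNK, stood at 10.8, 7.53 and 9.61 CPM in WT and 14.9, 21.9 and 27 in MKP5-KO (log2 difference 1.16, SE 0.20, adjusted p = 0.002). For both genes every knockout library lay above every WT library. Dusp5, a nuclear ERK phosphatase, differed by 0.84 and Dusp3 by 0.35. The ERK phosphatase Dusp6 (0.38) lost its call in 7 of 19 alternatives (highest adjusted p 0.117), and Dusp9 (1.13) in 3 of 18 (highest adjusted p 0.0743). The lower members, beside Dusp10, were Dusp22 (-0.49) and Dusp7 (-0.44). The phosphatases Dusp2, Dusp8, Dusp14 and Dusp16 were not called, at 0.61, 0.79, -0.10 and 0.32.

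In the cascade on which MKP5 acts the share of calls was close to that of all tested genes. Of 27 tested genes of the p38 and JNK cascade 2 were higher and 6 lower, 29.6% in all beside 28.6%. Mapk14, the main p38 kinase of macrophages, went from 284 ± 13.1 CPM in WT to 226 ± 13.6 (log2 difference -0.33, SE 0.06, adjusted p = 0.00203). Lower too were the upstream kinases Map3k7 (-0.40), Map3k5 (-0.44) and Map2k6 (-0.70), the adaptor Tab2 (-0.35) and the p38 target kinase Mapkapk3 (-0.37); Map2k6 lost its call without WT 24 h replicate 2 or 3 (highest adjusted p 0.0615). The JNK genes Mapk8 and Mapk9 were not called (-0.20 and 0.12). The higher members were Gadd45g, an activator of the upstream kinase Map3k4, which stood at 5.09, 5.19 and 5.09 CPM in WT and 11.5, 10.1 and 11.6 in MKP5-KO (log2 difference 1.11, SE 0.11, adjusted p = 8.45e-05), and Map3k6 (0.96).

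Members of the ERK cascade differed in both directions. Of 23 tested members 6 were higher and 8 lower, or 60.9% called. Mapk3, which encodes ERK1 (-0.24), and Mapk7, which encodes ERK5 (-0.36), were among the lower members. The higher members included 4 negative regulators of Ras signalling. Spred2 stood at 15.2, 16.1 and 10.2 CPM in WT and 27.2, 27.6 and 23.7 in MKP5-KO (log2 difference 0.94, SE 0.15, adjusted p = 0.00115), and the GTPase-activating protein gene Rasa1 at 171, 156 and 172 and 257, 308 and 308 CPM (log2 difference 0.80, SE 0.08, adjusted p = 6.24e-05). The others were Spry2 (0.75) and Spred1 (0.44), and in all 4 the groups did not overlap. The count of lower members fell to 4 without WT 24 h replicate 2, to 5 without WT 24 h replicate 3 and to 5 without MKP5-KO replicate 1.

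Downstream, many immediate early genes were higher in MKP5-KO. Of 28 tested genes of the AP-1 and immediate early list 14 were higher and 2 lower, with a median log2 difference of 0.29 beside -0.054 over all tested genes. The EGR zinc finger factors had the largest differences with Fosb. Egr2 stood at 15.8, 12.4 and 12.7 CPM in WT and 53.9, 63.7 and 63.4 in MKP5-KO (log2 difference 2.15, SE 0.11, adjusted p = 1.27e-06), after 4.78, 4.37 and 4.49 CPM in WT at 0 h. Egr3 stood at 1.32, 1.33 and 2.17 and 8.6, 5.17 and 4.66 CPM (log2 difference 1.91, SE 0.28, adjusted p = 0.000729) and Egr1 at 3.43, 4.36 and 3.41 and 16.9, 11.6 and 9.32 CPM (log2 difference 1.71, SE 0.22, adjusted p = 0.000353). Each knockout library of these 3 genes was above each WT library. The growth regulator Myc went from 5.66 ± 0.348 CPM in WT to 17.7 ± 1.94 (log2 difference 1.64, SE 0.11, adjusted p = 5.83e-06) and Klf4, a zinc finger factor of monocyte differentiation, from 4.18 ± 0.448 to 9.83 ± 0.722 (log2 difference 1.23, SE 0.11, adjusted p = 2.91e-05).

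Among AP-1 subunits proper, Fos stood at 32.7, 32.4 and 30.3 CPM in WT and 65.2, 83.2 and 68.6 in MKP5-KO (log2 difference 1.18, SE 0.08, adjusted p = 1.03e-05). The stress-induced factor Atf3, a dimer partner of JUN proteins, stood at 171, 146 and 144 and 313, 355 and 341 CPM (log2 difference 1.13, SE 0.07, adjusted p = 5.43e-06). Jund (0.63) and Junb (0.45) were higher as well, and Fosb, at 7, 7 and 4 reads in WT and 14, 15 and 17 in MKP5-KO, was called at low depth (log2 difference 1.82, SE 0.38, adjusted p = 0.00524). Jun itself differed little (0.26), its groups overlapped, and its call was lost in 11 of 19 alternatives (highest adjusted p 0.148). Fosl2, Maff, Mafk, Batf and Batf3 were not called, with log2 differences of -0.06 to 0.26. The 2 lower members were Ier3 (-0.72), a survival gene, and the small MAF factor gene Mafg (-0.19), whose call was lost in 6 of 19 alternatives (highest adjusted p 0.103). The count of higher members over the leave-one-out fits was 12 to 13.

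Dusp10 lies on chromosome 1, and 18 of the 40 tested genes nearest to it (20 on each side) were called, 6 higher and 12 lower, which is 45% beside 28.6% over all genes. The 40 genes reach 2801 kb before and 6625 kb after Dusp10. The largest difference was that of Lyplal1, a lysophospholipase-like gene 2012 kb away, with 7, 10 and 8 reads in WT and 64, 70 and 110 in MKP5-KO (log2 difference 3.69, SE 0.30, adjusted p = 2.03e-05). Distances are those in GRCm38. Bpnt1, a nucleotidase gene 1257 kb away, differed by 0.83, the flagellin receptor gene Tlr5, at 1037 kb, by -1.74, and Cenpf, at 5565 kb, by -1.12. Tgfb2 (-1.51) lost its call in 6 of 18 alternatives (highest adjusted p 0.0941) and BC085271 in 3 of 18. Mia3, Brox, Eprs and Degs1 lost theirs in 14, 8, 8 and 4 of 19. Lyplal1 reached the read filter through the MKP5-KO libraries and Tgfb2 through the WT libraries at 24 h, the groups where each was high. A part of the knockout's flanking DNA in these differences was not tested.

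**Figure D2:**
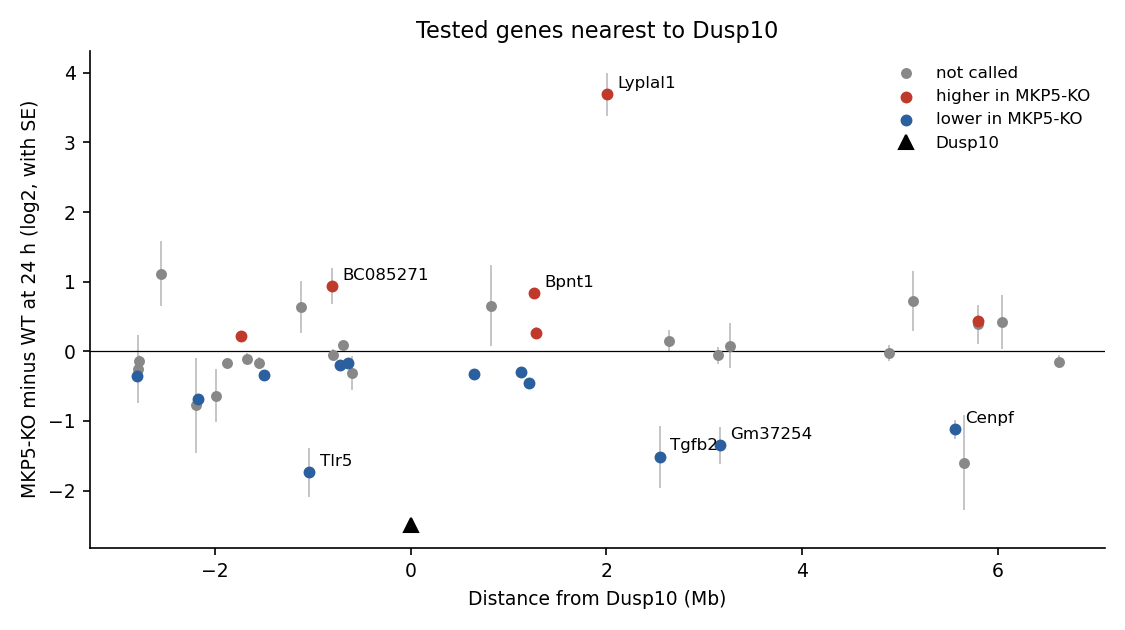
The 40 tested genes nearest to Dusp10 are placed by their distance from it in megabases, with the log2 difference (MKP5-KO minus WT at 24 h) and its SE on the vertical axis. Lyplal1 at 3.69 stands above all other neighbours; the black triangle is Dusp10 at -2.50.

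Class II antigen presentation genes held 4 of the 20 largest ranked increases in MKP5-KO, with H2-Eb1 first; ranks cover called genes with a mean of at least 5 CPM, no overlap between the groups and no clone-based name. Class II molecules are α and β chain pairs that carry peptides from endosomes to the surface, where CD4+ T cells read them, and their genes share a promoter module of an X box and a Y box that is bound by the RFX and NF-Y complexes together with the coactivator CIITA. Of 15 tested genes of the list 8 were higher and 2 lower (median 0.52). H2-Eb1, a β chain, stood at 8.66, 3.26 and 4.78 CPM in WT and 57.4, 66.4 and 56.9 in MKP5-KO (log2 difference 3.54, SE 0.26, adjusted p = 1.56e-05). H2-Aa, an α chain, stood at 11.7, 6.11 and 7.8 and 78.9, 92.8 and 76 CPM (log2 difference 3.32, SE 0.19, adjusted p = 4.65e-06), and its partner H2-Ab1 at 16.8, 7.07 and 10.2 and 81, 98 and 73.2 CPM (log2 difference 2.96, SE 0.24, adjusted p = 2.86e-05). WT replicate 1 was the highest of the WT libraries for all 3 chains and still lay well below the lowest knockout library. Levels in WT at 0 h were 20.8 ± 1.07, 21.9 ± 0.0458 and 26.5 ± 0.936 CPM in this order, between those of the 24 h genotypes.

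The rest of the class II machinery followed in part. Cd74, the invariant chain that fills the groove until peptides arrive, stood at 88.3, 46.1 and 56.9 CPM in WT and 401, 436 and 352 in MKP5-KO (log2 difference 2.68, SE 0.18, adjusted p = 1.11e-05). Ciita stood at 5.63, 4.45 and 5.89 and 19.8, 19.2 and 17.8 CPM (log2 difference 1.84, SE 0.19, adjusted p = 0.000109), whereas its partners in the RFX complex, Rfx5, Rfxank and Rfxap, were not called (-0.21, -0.17 and 0.11). Ctss, the protease that trims the invariant chain, stood at 1350, 1187 and 1325 and 1950, 2254 and 2069 CPM (log2 difference 0.70, SE 0.06, adjusted p = 3.75e-05). The peptide editor subunits H2-DMa and H2-DMb1 differed by 0.54 and 0.52. Lower in MKP5-KO were Ifi30, a thiol reductase of endosomes (-0.49), and H2-Ob, a subunit that inhibits the editor, with 26, 30 and 29 reads in WT and 10, 5 and 13 in MKP5-KO (-1.14). The H2-Ob call was lost in 10 of 18 alternatives (highest adjusted p 0.156).

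Promoter sequence was read for 4 class II genes with both kinds of outcome, 3 that were higher and H2-Ob, to show what they have in common. The 150 bases before the annotated start are given 5′ to 3′ on the gene's strand (RefSeq, GRCm38.p6, an earlier build than the one the submitters aligned to). Capitals mark the Y box core TGATTGG and an X box searched as AGNAAC, 2 bases of any kind and ATGATG, each on both strands.
H2-Aa: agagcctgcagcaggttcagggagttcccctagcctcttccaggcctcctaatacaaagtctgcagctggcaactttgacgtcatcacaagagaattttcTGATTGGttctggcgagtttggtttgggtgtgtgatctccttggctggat
H2-Eb1: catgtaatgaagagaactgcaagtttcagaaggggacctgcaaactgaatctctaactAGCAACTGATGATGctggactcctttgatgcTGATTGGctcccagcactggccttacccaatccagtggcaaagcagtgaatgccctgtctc
H2-DMb1: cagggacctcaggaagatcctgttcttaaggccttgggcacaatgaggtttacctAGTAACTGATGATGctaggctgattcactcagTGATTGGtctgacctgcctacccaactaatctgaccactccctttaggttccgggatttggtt
H2-Ob: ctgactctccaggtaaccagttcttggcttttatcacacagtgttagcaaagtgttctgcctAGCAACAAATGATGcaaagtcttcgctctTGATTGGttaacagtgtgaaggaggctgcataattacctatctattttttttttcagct
The windows are chr17:34287824-34287973 on the minus strand for H2-Aa, chr17:34305717-34305866 on the plus strand for H2-Eb1, chr17:34153041-34153190 on the plus strand for H2-DMb1 and chr17:34238755-34238904 on the plus strand for H2-Ob. In all 4 the Y box lay 44 to 63 bases before the start. The X box as spelled was found in H2-Eb1 at bases 92 to 79 before the start, in H2-DMb1 at 95 to 82 and in H2-Ob at 88 to 75, and was not matched in H2-Aa. Of the 15 tested class II genes 11 had a promoter in the table, and 7 of them (63.6%) held the Y box core, beside 9.63% of 10451 tested genes with a promoter. The 7 were H2-Aa, H2-Eb1 and H2-DMb1, which were higher, H2-Ob, which was lower, and H2-DMb2, H2-Oa and Rfx5, which were not called. The X box was held by 3 of the 11 (27.3%) and by 4 of the 10451 tested genes with a promoter (0.0383%), these 3 included. H2-Ab1, Cd74 and Ciita were among the class II genes without a promoter in the table. H2-Ob thus carried both boxes and did not share the direction of H2-Eb1. A match describes the letters in these windows and no binding.

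MHC class I genes had smaller differences. Of 21 tested members 8 were higher and 1 lower (42.9% called beside 28.6% of all tested genes, median 0.16). The higher ones included the light chain gene B2m, from 1207 ± 31.4 CPM in WT to 1651 ± 98.4 (log2 difference 0.45, SE 0.05, adjusted p = 9.23e-05), the nonclassical H2-T23 (0.58) and the immunoproteasome subunit Psmb10 (0.36). The peptide transporters Tap1 and Tap2 were not called (0.21 and 0.16). In the co-stimulatory and checkpoint list 2 of 13 were higher and 5 lower (53.8% called). The inhibitory receptor gene Havcr2, which encodes TIM-3, stood at 19.8, 25.1 and 20 CPM in WT and 9.18, 9.17 and 9.99 in MKP5-KO (log2 difference -1.18, SE 0.10, adjusted p = 3.24e-05), and Icosl was lower (-0.60). Of the ligands of CD28, which give T cells their classical second signal, Cd80 was lower (-0.77; not called without WT 24 h replicate 3 or without MKP5-KO replicate 1, highest adjusted p 0.0698) and Cd86 was not called (0.00). Cd40, the receptor for the CD40 ligand of T cells, was not called (0.22). Of 7 tested dendritic cell markers 4 were higher, Sirpa (0.18), Bst2 (0.41), Irf4 (0.54) and Clec9a (1.40); the Irf4 and Clec9a calls were lost in 7 and 9 alternatives (highest adjusted p 0.108 and 0.101). Sirpa made up most of the list's level, and the summed level of that list was 2268, 2314 and 2185 CPM in WT and 2482, 2677 and 2586 in MKP5-KO. Their part in the class II result was not tested; the count of 4 was 2 without any 1 WT 24 h replicate and without MKP5-KO replicate 2. The dendritic cell genes Flt3 and Zbtb46 had too few reads to be tested.

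**Figure D3:**
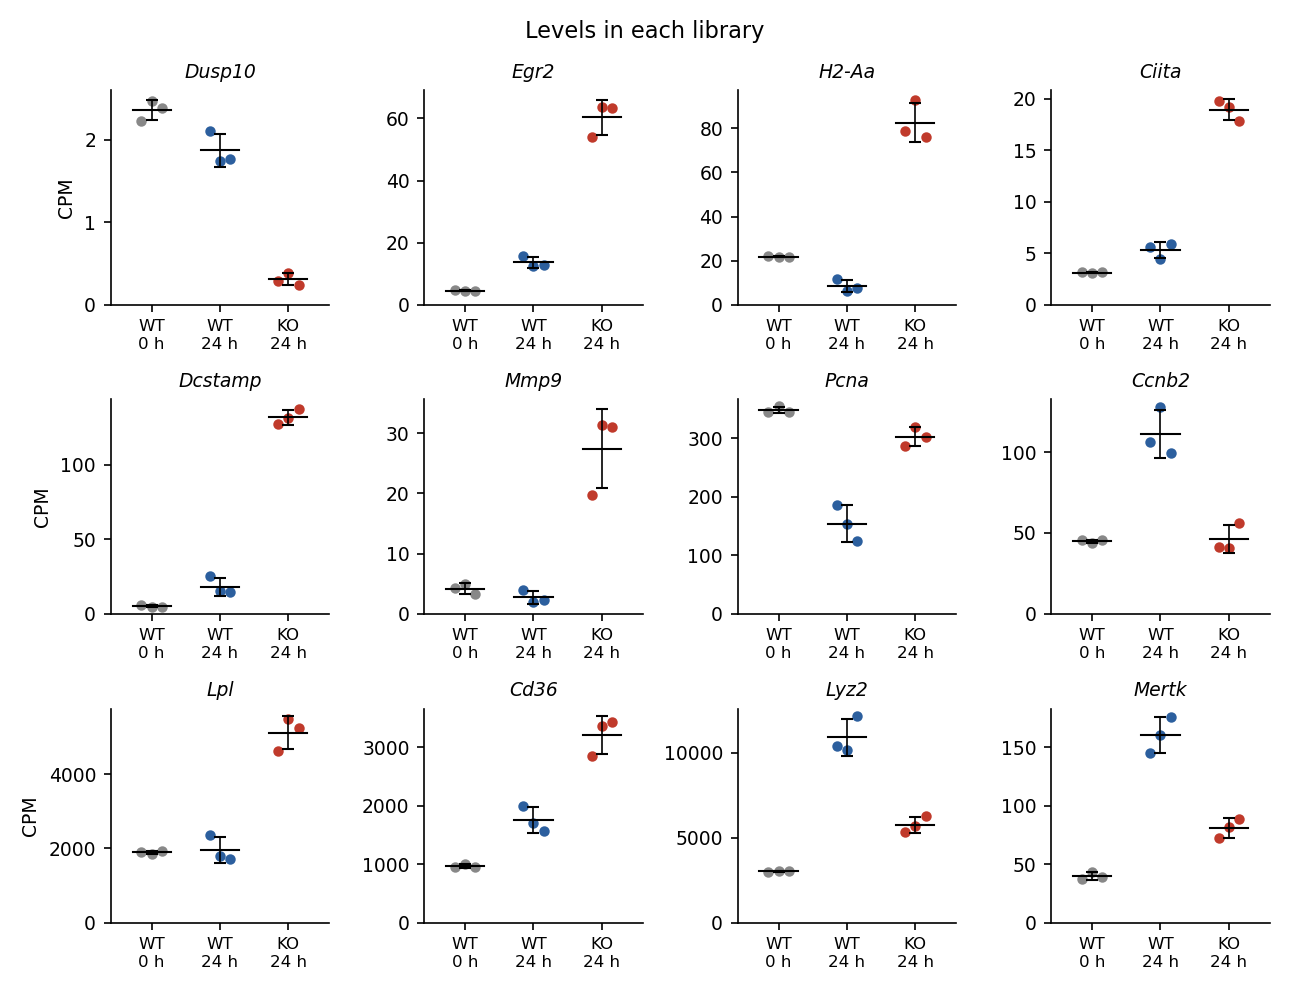
CPM of 12 genes in each library (points), with the group mean and SD (bars), for WT at 0 h, WT at 24 h and MKP5-KO at 24 h. The 3 knockout libraries lie outside the range of the 3 WT libraries at 24 h in every panel, above it for Egr2, H2-Aa, Ciita, Dcstamp, Mmp9, Pcna, Lpl and Cd36 and below it for Dusp10, Ccnb2, Lyz2 and Mertk. The 12 genes were chosen with results of these data known, and 44.9% of all tested genes had groups that did not overlap.

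The cell cycle genes split by phase. Of 35 tested genes for DNA replication and the G1/S step 18 were higher in MKP5-KO and 1 lower (median 0.40). Of 35 tested genes for G2 and mitosis none was higher and 32 were lower (91.4% called; median -0.72), and the remaining 3, Ttk, Cdk1 and Pbk, stood at -0.54, -0.37 and -0.35. The summed level of the mitotic list was 3968, 4036 and 2972 CPM in the WT libraries and 2009, 2012 and 2410 in MKP5-KO, that of the replication list 1466, 1335 and 973 and 1707, 1747 and 1736. The ratio of mitotic to replication sums was 2.707, 3.022 and 3.055 in WT and 1.177, 1.152 and 1.388 in MKP5-KO, with 0.993, 0.950 and 1.016 in WT at 0 h. WT replicate 3 was low in both sums, and without it the higher replication calls numbered 16 and the lower mitotic calls 35.

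Replication genes with the largest differences included loading factors and their clamp. Cdc6, which loads the MCM helicase on origins, stood at 7.39, 5.28 and 4.03 CPM in WT and 12.8, 12.7 and 11 in MKP5-KO (log2 difference 1.17, SE 0.19, adjusted p = 0.00121). Pcna, the sliding clamp of DNA polymerases, stood at 186, 153 and 124 and 287, 320 and 302 CPM (log2 difference 0.99, SE 0.11, adjusted p = 0.00022). The helicase subunits Mcm2, Mcm3, Mcm4, Mcm5, Mcm6 and Mcm7 were all called higher, from 0.40 for Mcm7 to 0.93 for Mcm2, as were Ccne1, the cyclin that drives S phase entry (1.13), and Cdt1 (0.74). The subunits of ribonucleotide reductase, Rrm1 and Rrm2, were not called (-0.09 and 0.40). E2f2, the lower member (-0.40), lost its call in 7 of 19 alternatives (highest adjusted p 0.081).

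Mitotic genes were lower across kinds of function. Ccnb2, a B-type cyclin that drives mitotic entry, stood at 106, 128 and 99.6 CPM in WT and 41.6, 40.7 and 56.3 in MKP5-KO (log2 difference -1.27, SE 0.12, adjusted p = 7.56e-05), and Kif20a, a kinesin of the spindle midzone, at 119, 130 and 92.5 and 47.8, 41.3 and 59.8 CPM (log2 difference -1.20, SE 0.14, adjusted p = 0.000288). Hmmr, a spindle protein, differed by -1.16, the kinetochore gene Cenpf by -1.12, and Cdc25c, the phosphatase that activates CDK1, by -1.06. Mki67, the proliferation marker Ki-67, went from 699 ± 105 CPM in WT to 392 ± 50 (log2 difference -0.83, SE 0.12, adjusted p = 0.000942). Outside the list, the cyclin-dependent kinase phosphatase gene Cdkn3 stood at 14.2, 12.9 and 12.7 CPM in WT and 3.94, 2.97 and 4.18 in MKP5-KO (log2 difference -1.85, SE 0.12, adjusted p = 6.53e-06).

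Regulators of the G1 decision differed in both directions. The D cyclins start the cycle in response to growth factors: Ccnd1 stood at 82.3, 69.2 and 59.2 CPM in WT and 152, 170 and 162 in MKP5-KO (log2 difference 1.21, SE 0.10, adjusted p = 2.51e-05), and Ccnd2 at 11, 10.1 and 8.46 and 35.8, 32.5 and 25.1 CPM (log2 difference 1.65, SE 0.14, adjusted p = 2.2e-05). Their kinase Cdk6 was higher (0.77), while Ccnd3 and Cdk4 were not called (-0.08 and 0.06). The inhibitor genes Cdkn2c, Cdkn1b and Cdkn1a, for p18, p27 and p21, were lower (-0.61, -0.42 and -0.35), and Cdkn2b, for p15, was higher, from 2.33 ± 0.681 CPM in WT to 7.99 ± 0.844 (log2 difference 1.81, SE 0.22, adjusted p = 0.000292). Genes of ribosome biogenesis, many of them known targets of Myc, were higher in 20 of 36 cases and lower in 1 (median 0.23), with the pseudouridine synthase Dkc1 at 0.67 and the RNA polymerase I subunit Polr1a at 0.53. That count was 13 without WT 24 h replicate 3. The cytosolic ribosomal protein genes themselves were called in 8 of 54 cases (14.8%), 5 higher and 3 lower, below the 28.6% of all genes. The higher ones numbered 11 with relative log expression or upper-quartile scaling and 3 without WT 24 h replicate 2 or without MKP5-KO replicate 2.

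Promoters of 3 cell cycle genes are shown because the mitotic and replication lists are known for different elements, CCAAT boxes bound by NF-Y and E2F sites. Capitals mark CCAAT and the E2F site, searched as TTTGGCGC, each on either strand, over the 150 bases before the start (RefSeq, GRCm38.p6).
Ccnb2: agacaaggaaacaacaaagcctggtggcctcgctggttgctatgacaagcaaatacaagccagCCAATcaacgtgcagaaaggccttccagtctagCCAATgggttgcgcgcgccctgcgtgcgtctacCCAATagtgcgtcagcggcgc
Hmmr: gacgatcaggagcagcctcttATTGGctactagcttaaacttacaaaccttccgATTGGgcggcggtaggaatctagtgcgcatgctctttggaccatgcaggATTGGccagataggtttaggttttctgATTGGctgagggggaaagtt
Mcm6: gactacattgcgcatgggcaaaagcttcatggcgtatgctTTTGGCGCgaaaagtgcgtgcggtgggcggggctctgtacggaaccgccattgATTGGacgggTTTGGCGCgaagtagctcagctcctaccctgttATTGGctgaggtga
The windows are chr9:70421555-70421704 on the minus strand for Ccnb2, chr11:40733438-40733587 on the minus strand for Hmmr and chr1:128359706-128359855 on the minus strand for Mcm6. Ccnb2 held 3 CCAAT boxes at bases 87, 54 and 21 before the start (counted at the first base of each) and Hmmr held 4, at 129, 96, 47 and 20. Neither held the E2F site as spelled. Mcm6 held 2 E2F sites, at 110 and 47, and also 2 CCAAT boxes, at 57 and 14, so CCAAT did not set the 3 windows apart. Of the 35 mitotic genes 28 had a promoter in the table, and 20 of them (71.4%) held CCAAT in these 150 bases, beside 15 of 29 replication genes (51.7%) and 32% of the 10451 tested genes with a promoter. The E2F site was held by none of the 28 mitotic genes, by 3 of the 29 replication genes (10.3%) and by 0.536% of tested genes; CCAAT is also a part of the Y box core above.

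**Figure D4:**
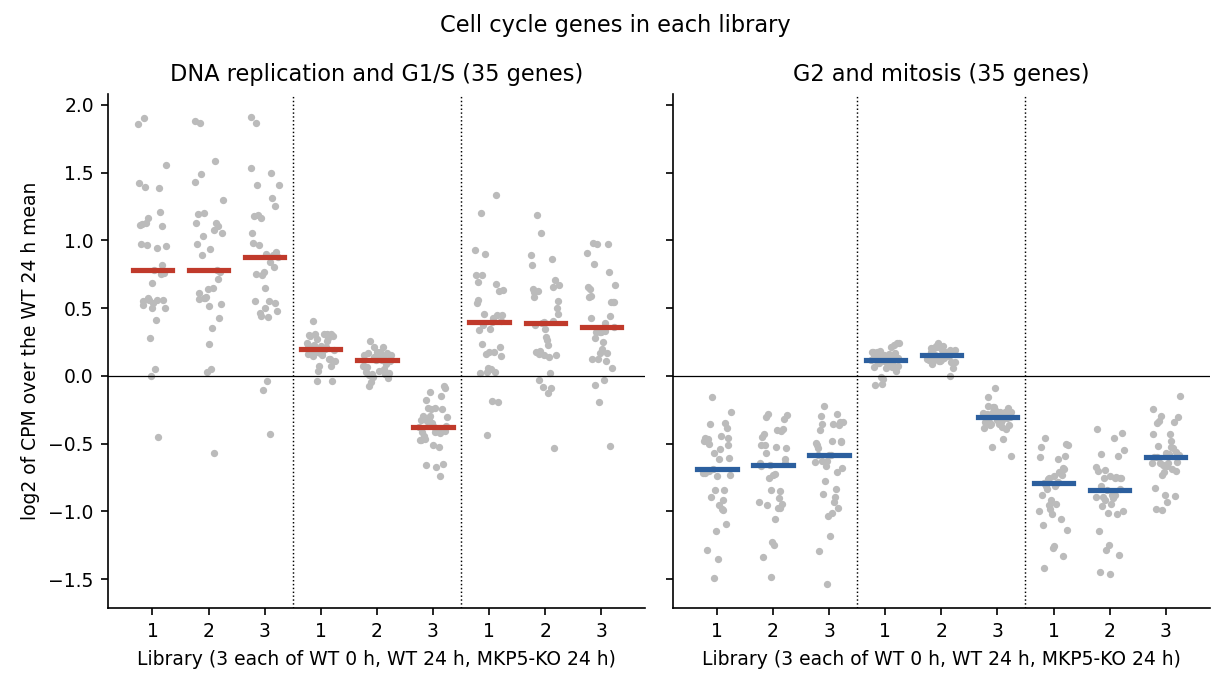
Each grey point is 1 gene in 1 library, as log2 of its CPM over the WT 24 h mean; coloured bars are medians over the 35 genes of each list, and dotted lines separate WT at 0 h, WT at 24 h and MKP5-KO at 24 h. Replication genes of MKP5-KO lie mostly above 0 and mitotic genes below it, and WT 24 h library 3 is the lowest of its group in both panels.

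Many genes of osteoclasts and of macrophage fusion were higher. Osteoclasts are bone-resorbing giant cells that form by fusion of macrophage-lineage cells under M-CSF and RANKL. Of 20 tested members 10 were higher and 3 lower (median 0.49), 65% called beside 28.6% of all tested genes. Dcstamp, a receptor needed for fusion, stood at 25, 15.1 and 14.3 CPM in WT and 127, 131 and 137 in MKP5-KO (log2 difference 2.91, SE 0.19, adjusted p = 8.24e-06). Mmp9, a gelatinase of resorbing cells, stood at 3.92, 1.97 and 2.26 and 19.8, 31.3 and 31.1 CPM (log2 difference 3.36, SE 0.27, adjusted p = 2.44e-05). For both genes the knockout values lay several-fold above every WT value. The acid phosphatase gene Acp5, whose product is the TRAP marker, stood at 6.61, 3.72 and 2.88 and 14.6, 17.6 and 14.4 CPM (log2 difference 1.90, SE 0.26, adjusted p = 0.000628), and the proton pump subunit gene Atp6v0d2, also needed for fusion, at 151, 104 and 119 and 227, 316 and 312 CPM (log2 difference 1.19, SE 0.15, adjusted p = 0.000396). The RANKL receptor gene Tnfrsf11a (0.49) and the lineage factor Mitf (0.52) were higher. Nfatc1, the factor that drives osteoclast formation, was lower (107 ± 7.38 CPM in WT and 74.9 ± 1.39 in MKP5-KO; log2 difference -0.51, SE 0.07, adjusted p = 0.000389), as was Traf6, the adaptor below the RANKL receptor (-0.38). Ctsk and Itgb3, which mature osteoclasts express at high level, were not called (0.48 and -0.11).

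Proteases and their inhibitors differed in both directions, 6 of 21 tested members of the list higher and 10 lower. That is 76.2% called beside 28.6% of all tested genes. The macrophage elastase gene Mmp12 stood at 977, 750 and 703 CPM in WT and 1877, 2025 and 2249 in MKP5-KO (log2 difference 1.35, SE 0.12, adjusted p = 3.77e-05), and Plau, which encodes urokinase, at 57.9, 54.8 and 53.4 and 111, 145 and 163 CPM (log2 difference 1.32, SE 0.12, adjusted p = 5.34e-05). The urokinase receptor gene Plaur (0.72) and Adam8 (0.59) were higher too. Other proteases were lower: Mmp2 (-2.70), Mmp8 (-1.33), Mmp27 (-1.13), the sheddase genes Adam10 (-0.54) and Adam9 (-0.25), and Mmp19 (-0.31; highest adjusted p over the alternatives 0.0563). Lower too were the urokinase inhibitor Serpinb2 (4.01 ± 1.52 CPM in WT and 0.322 ± 0.261 in MKP5-KO; -3.83) and the metalloproteinase inhibitors Timp2 (-0.76) and Timp3 (-1.52). The Timp3 call was lost in 4 of 18 alternatives (highest adjusted p 0.0787).

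Genes for lipid uptake were among those that rose most in CPM. Lpl, the lipoprotein lipase gene, had the largest increase in CPM of the ranked genes, from 2359, 1794 and 1706 CPM in WT to 4620, 5494 and 5247 in MKP5-KO (log2 difference 1.40, SE 0.11, adjusted p = 1.86e-05). Cd36, the main scavenger receptor for ox-LDL, stood at 2000, 1708 and 1561 and 2843, 3362 and 3428 CPM (log2 difference 0.87, SE 0.09, adjusted p = 0.000126), and Pparg, the nuclear receptor that induces it, at 26.7, 21.1 and 22 and 55.2, 60.8 and 53.1 CPM (log2 difference 1.28, SE 0.09, adjusted p = 8.77e-06). No knockout library of these genes overlapped with WT. The CPM of Lpl, Cd36 and Lyz2 rest on annotated gene lengths that could not be checked, whereas the log2 differences do not depend on them. The scavenger receptor Msr1 (0.51) and the lipid droplet coat gene Plin2 (0.44) were higher, and Stab1, a scavenger receptor of resident macrophages, was lower (2030, 2287 and 2701 CPM in WT, 1023, 1213 and 1411 in MKP5-KO; log2 difference -0.95, SE 0.12, adjusted p = 0.000348), as was the mannose receptor Mrc1 (-0.69). In the scavenger and lipid uptake list 7 of 27 were higher and 4 lower, 40.7% called beside 28.6% of all tested genes, and its median was -0.13.

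Genes under the oxysterol receptor LXR did not move as 1 group. Nr1h3, which encodes LXRα, stood at 8.86, 6.2 and 6.56 CPM in WT and 18.6, 18.3 and 18.4 in MKP5-KO (log2 difference 1.37, SE 0.13, adjusted p = 4.17e-05), and the cholesterol exporter Abcg1 was higher (0.49). The other exporter, Abca1, went from 944 ± 128 to 717 ± 117 CPM (-0.40) and Apoe from 3788 ± 892 to 2777 ± 366 CPM (-0.43), both called lower. The Abca1 call was lost in 7 and the Apoe call in 14 of 19 alternatives (highest adjusted p 0.115 and 0.146). Among genes of cholesterol synthesis and LDL uptake 21 of 24 were not called and 3 were lower, Mvd, Stard4 and Fdft1 (12.5% called beside 28.6%).

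Genes of lipid-associated macrophages, a state described in adipose tissue and plaques, were higher in 10 of 20 cases and lower in 3, beside 11.8% and 16.8% of all tested genes. Itgax, which encodes CD11c, stood at 132, 106 and 98.1 CPM in WT and 407, 403 and 424 in MKP5-KO (log2 difference 1.89, SE 0.10, adjusted p = 1.27e-06). Gpnmb, a lysosomal glycoprotein, went from 2842 ± 166 to 4552 ± 354 CPM (log2 difference 0.68, SE 0.06, adjusted p = 2.94e-05) and the lipid receptor Trem2 from 545 ± 35.9 to 740 ± 23.1 CPM (log2 difference 0.44, SE 0.05, adjusted p = 0.000278). Clec7a, the β-glucan receptor Dectin-1, was higher (1.07), and the fatty acid carrier Fabp5 was lower (-0.67). Lpl belongs to this list too.

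Macrophage markers differed in both directions, 5 of 15 higher and 5 lower (66.7% called beside 28.6% of all tested genes). The higher ones were Cd14 (0.60), the Fc receptor gene Fcgr1 (0.43), the monocyte chemokine receptor gene Ccr2 (0.38), the lysosomal glycoprotein gene Cd68 (0.32) and Spi1, which encodes the lineage factor PU.1 (0.19). The Fcgr1 call was lost in 4 of 19 alternatives (highest adjusted p 0.0747). Among the lower ones, Lyz2, the lysozyme gene, had the largest decrease in CPM of the ranked genes, from 10377, 10171 and 12129 in WT to 5338, 5658 and 6274 in MKP5-KO (log2 difference -0.92, SE 0.07, adjusted p = 1.56e-05), after 3025 ± 31.4 CPM in WT at 0 h. Csf1r (-0.31) and the fractalkine receptor Cx3cr1 (-0.87) were lower too, with Mertk and Mrc1. Outside the marker list, Maf, a transcription factor that restrains macrophage self-renewal, went from 878 ± 82.1 to 507 ± 59.5 CPM (log2 difference -0.79, SE 0.09, adjusted p = 0.000233), and the α chain gene of the GM-CSF receptor, Csf2ra, was higher (281 ± 34.8 and 475 ± 28.8 CPM; log2 difference 0.76, SE 0.08, adjusted p = 0.00015). With relative log expression or upper-quartile scaling 9 of the markers were higher, and 8 without MKP5-KO replicate 1.

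Receptors for dead cells of the TAM kinase family differed in opposite directions. Mertk, the receptor of mature macrophages, stood at 145, 160 and 176 CPM in WT and 72, 82.2 and 89 in MKP5-KO (log2 difference -0.98, SE 0.10, adjusted p = 6.32e-05), and Axl, its relative, at 122, 110 and 110 and 299, 272 and 247 CPM (log2 difference 1.26, SE 0.07, adjusted p = 2.97e-06). The groups did not overlap for either gene. The relative Tyro3 was called higher (1.18) but lost the call in 11 alternatives (highest adjusted p 0.135). Gas6, a ligand of the family, was lower (-0.81), and the second ligand, Pros1, was not called (-0.11). Among integrins, Itgal, Itga4 and Itga6 were lower (-0.85, -0.73 and -0.87) and the β2 chain gene Itgb2, the partner of CD11c, was higher (0.58).

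Inflammatory mediators differed gene by gene. Tnf stood at 5.38, 4.36 and 5.27 CPM in WT and 13.5, 12.5 and 11.1 in MKP5-KO (log2 difference 1.30, SE 0.10, adjusted p = 1.11e-05), Ccl6, a monocyte-attracting chemokine of the mouse, at 213, 164 and 180 and 483, 570 and 521 CPM (2.84-fold higher, adjusted p = 5.44e-06), and Ccl5 at 1.76, 0.735 and 1.28 and 5.32, 5.04 and 3.03 CPM (log2 difference 1.85, SE 0.30, adjusted p = 0.00146). Il18 (-0.81) and the chemokines Pf4 (-0.59) and Ccl24 (-2.02) were lower. Chemokine receptors were higher in 6 of 12 cases, with Ccr3 at 1.54 and Ccr1 at 0.86, and lower in 3, with Cx3cr1 as the largest. In that list 75% were called. The subunits of NF-kB itself, Nfkb1, Nfkb2, Rela, Relb and Rel, were not called (-0.13 to 0.15). Of 23 tested Toll-like receptor and adaptor genes 5 were higher and 7 lower (52.2% called beside 28.6% of all tested genes). Tlr2 and Tlr7 were lower (-0.70 and -0.58), whereas Tlr1 (0.53 to 0.63 over the alternatives) and Cd14, the co-receptor of Tlr4 (0.60), were higher. Interferon-stimulated genes were called in 15.9% of 44 cases, below the 28.6% of all tested genes, 6 higher and 1 lower; without MKP5-KO replicate 3 the higher calls numbered 17, and without WT 24 h replicate 1 they numbered 10.

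Regulators of G protein signalling were higher in 6 of 12 cases, beside 11.8% of all tested genes, and lower in none. Rgs1, which dampens chemokine receptor signals, stood at 31, 23.6 and 19.5 CPM in WT and 102, 124 and 104 in MKP5-KO (log2 difference 2.18, SE 0.14, adjusted p = 8.13e-06) and Rgs16 at 2.89, 2.43 and 2.79 and 9.26, 13.3 and 10.3 CPM (log2 difference 2.00, SE 0.24, adjusted p = 0.00024). Rgs2 and Rgs18 were higher (0.58 and 0.83). Rgs7 (0.666 ± 0.0603 CPM in WT and 1.64 ± 0.727 in MKP5-KO) and Rgs8 (0.71 ± 0.301 and 2.04 ± 0.969 CPM) were called higher and lost their calls in 8 and 7 of 18 alternatives (highest adjusted p 0.198 and 0.137), and Rgs10, not called at -0.21, was called lower in 6 of 19. Among feedback inhibitors of cytokine receptors, Socs3 went from 9.11 ± 1.78 CPM in WT to 4.14 ± 0.126 (log2 difference -1.11, SE 0.24, adjusted p = 0.00673) and Socs6 was lower (-0.72), while Socs1, Socs2, Socs4, Socs5, Socs7 and Cish were not called (-0.48 to 0.34). In the SOCS and STAT list of 20 none was higher and 7 were lower, 35% beside 16.8% of all tested genes. The other lower members were the transcription factor genes Stat5a (-0.22) and Stat5b (-0.26), the receptor-associated kinase genes Jak1 (-0.22) and Jak2 (-0.21), and Pias1 (-0.28); of these 5, Stat5b alone was called under all 19 alternatives. The lower count was 3 without WT 24 h replicate 3 and without MKP5-KO replicate 1, and 4 without MKP5-KO replicate 2.

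Extracellular matrix genes made up 12 of the 20 largest ranked decreases. Of 33 tested matrix genes 31 were lower and none higher (93.9% called; median -2.67), and all 33 had groups that did not overlap, beside 26.3% of all tested genes in that direction. Some members reached the read filter only through the WT libraries at 24 h, where they were high. Col5a2 had 180, 200 and 256 reads there, 25, 17 and 3 in MKP5-KO and 6, 8 and 4 in WT at 0 h, and Col5a1 was alike. Such genes could hardly be tested other than as lower, so these counts rest in part on the filter. Col1a2, a chain of type I collagen, stood at 41.7, 39.5 and 35.1 CPM in WT and 6.27, 4.84 and 3.63 in MKP5-KO (log2 difference -3.00, SE 0.33, adjusted p = 0.000136). Hspg2, the basement membrane proteoglycan perlecan, stood at 12.9, 10.1 and 9.79 and 1.09, 2.26 and 0.847 CPM (log2 difference -3.04, SE 0.42, adjusted p = 0.000513), and the fibronectin gene Fn1 at 172, 157 and 131 and 47.5, 69 and 54.8 CPM (log2 difference -1.43, SE 0.18, adjusted p = 0.000348). MKP5-KO replicate 3 was the lowest knockout library for 10 of the 12 matrix genes among the largest decreases, and without it 29 matrix genes were called lower. The summed level of the matrix list was 1316, 1276 and 1311 CPM in WT, 696, 731 and 646 in MKP5-KO and 461, 466 and 473 in WT at 0 h. The collagen chaperone Serpinh1 was lower as well (7.51 ± 0.83 CPM in WT and 0.869 ± 0.263 in MKP5-KO; log2 difference -3.10, SE 0.24, adjusted p = 1.56e-05).

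A part of the fibroblast markers was lower too, many of them matrix genes themselves. Of 20 markers 16 were tested and 68.8% of these were called, beside 28.6% of all tested genes. Among them 10 were lower and 1, Thy1, was higher (0.85, not called without WT 24 h replicate 2, where the adjusted p was 0.0555). Their summed level was 140, 124 and 119 CPM in WT, 38.3, 27.8 and 18.3 in MKP5-KO and 14.3, 10.3 and 11.9 in WT at 0 h. The list shares collagens with the matrix list; among markers that are not matrix genes, the transcription factor Prrx1 had 28, 23 and 29 reads in WT and 6, 2 and 1 in MKP5-KO (-2.72; not called without WT 24 h replicate 3, where the adjusted p was 0.0527) and the receptor gene Pdgfrb 47, 36 and 51 and 14, 8 and 9 reads (-1.58). Pdgfra, with 12, 7 and 14 and 19, 8 and 8 reads, was not called, and neither were Fap, Pi16 and Cxcl12. Dcn and Lum had too few reads to be tested, and Tcf21 had none in either genotype. The part of such cells in the matrix result was not tested. Acta2, the smooth muscle actin of myofibroblasts, stood at 16.9, 16.6 and 13.5 CPM in WT and 2.04, 2.07 and 0.242 in MKP5-KO (log2 difference -3.88, SE 0.66, adjusted p = 0.00201). Matrix genes with smaller decreases included Thbs1, which encodes thrombospondin 1 (244 ± 52.3 CPM in WT and 110 ± 18.3 in MKP5-KO; -1.15), the laminin chain Lamc1 (-0.48) and Tgfbi (-0.39).

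Some housekeeping functions differed. Autophagy genes were lower in 14 of 26 cases and higher in none, beside 16.8% of all tested genes lower (median -0.21 beside -0.054). These included the initiating kinase gene Ulk1, from 108 ± 15.9 CPM in WT to 71.9 ± 2.37 (log2 difference -0.58, SE 0.09, adjusted p = 0.0013), Wipi1 at -0.60 and the cargo receptor Nbr1 at -0.43; the count was 9 without WT 24 h replicate 2. Glycolysis and hypoxia genes were higher in 12 of 29 cases and lower in 1 (44.8% called beside 28.6% of all tested genes). The higher ones included Ldha (0.35), the glucose transporter Slc2a1 (0.55), Vegfa (0.70) and Pdk1 (0.78). Targets of the antioxidant factor NRF2 went both ways, 7 higher and 13 lower of 32 (62.5% called). The glutathione synthesis subunit Gclm was lower (158, 161 and 180 CPM in WT, 92, 85.3 and 94.9 in MKP5-KO, log2 difference -0.87, SE 0.06, adjusted p = 1.11e-05). The peroxiredoxin Prdx1 was higher (0.55). The count of lower NRF2 targets was 8 without WT 24 h replicate 3. The iron exporter Slc40a1 and the ferritin receptor gene Ncoa4 were lower (-0.80 and -0.80). Of nuclear-encoded respiratory chain genes 45 of 51 were not called, and 37 of 42 mitochondrial ribosomal protein genes.

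Growth factor and TGF-β genes also split. Lrrc32, whose product GARP holds latent TGF-β at the cell surface, stood at 3.03, 3.21 and 2.13 CPM in WT and 12.8, 11.8 and 16.9 in MKP5-KO (log2 difference 2.30, SE 0.44, adjusted p = 0.00324), and Tgfb1 itself went from 378 ± 8.53 to 451 ± 15.3 CPM (log2 difference 0.26, SE 0.04, adjusted p = 0.00192). Ccn2, a TGF-β target of connective tissue cells, stood at 11.8, 8.72 and 9.17 and 2.33, 1.23 and 0.363 CPM (log2 difference -3.22, SE 0.58, adjusted p = 0.00271), with the groups apart. The platelet-derived growth factor gene Pdgfb (0.76) and Bmp2 (1.01) were higher. Of 25 tested genes of the TGF-β and SMAD list 5 were higher and 9 lower (56% called beside 28.6% of all tested genes). The lower ones numbered 4 without WT 24 h replicate 2 and 5 without replicate 3.

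Receptors for nucleotides, lectins and complement went in both directions. The ADP receptors P2ry13 (13.8, 17.2 and 12.8 CPM in WT, 5.39, 6.01 and 6.36 in MKP5-KO; log2 difference -1.29, SE 0.12, adjusted p = 4.18e-05) and P2ry12 (-1.07) were lower, and P2ry1, a further ADP receptor, was higher (1.18). Clec4e, the mycobacterial glycolipid receptor Mincle, was lower (-0.71), and so was the activating receptor Pira2, from 41.1 ± 2.29 CPM in WT to 14.6 ± 0.423 (log2 difference -1.49, SE 0.06, adjusted p = 8.55e-07), one of a family of near-identical genes whose reads are uncertain to assign. C3, the central component of complement, went from 76 ± 16.6 to 150 ± 17 CPM (log2 difference 1.00, SE 0.15, adjusted p = 0.0009). Heat shock genes were higher in 8 of 16 cases (50%, beside 11.8% of all tested genes) and lower in none. Among them Hsp90aa1 stood at 0.54, Hsph1 at 0.60 and Bag3 at 0.48.

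**Figure D5:**
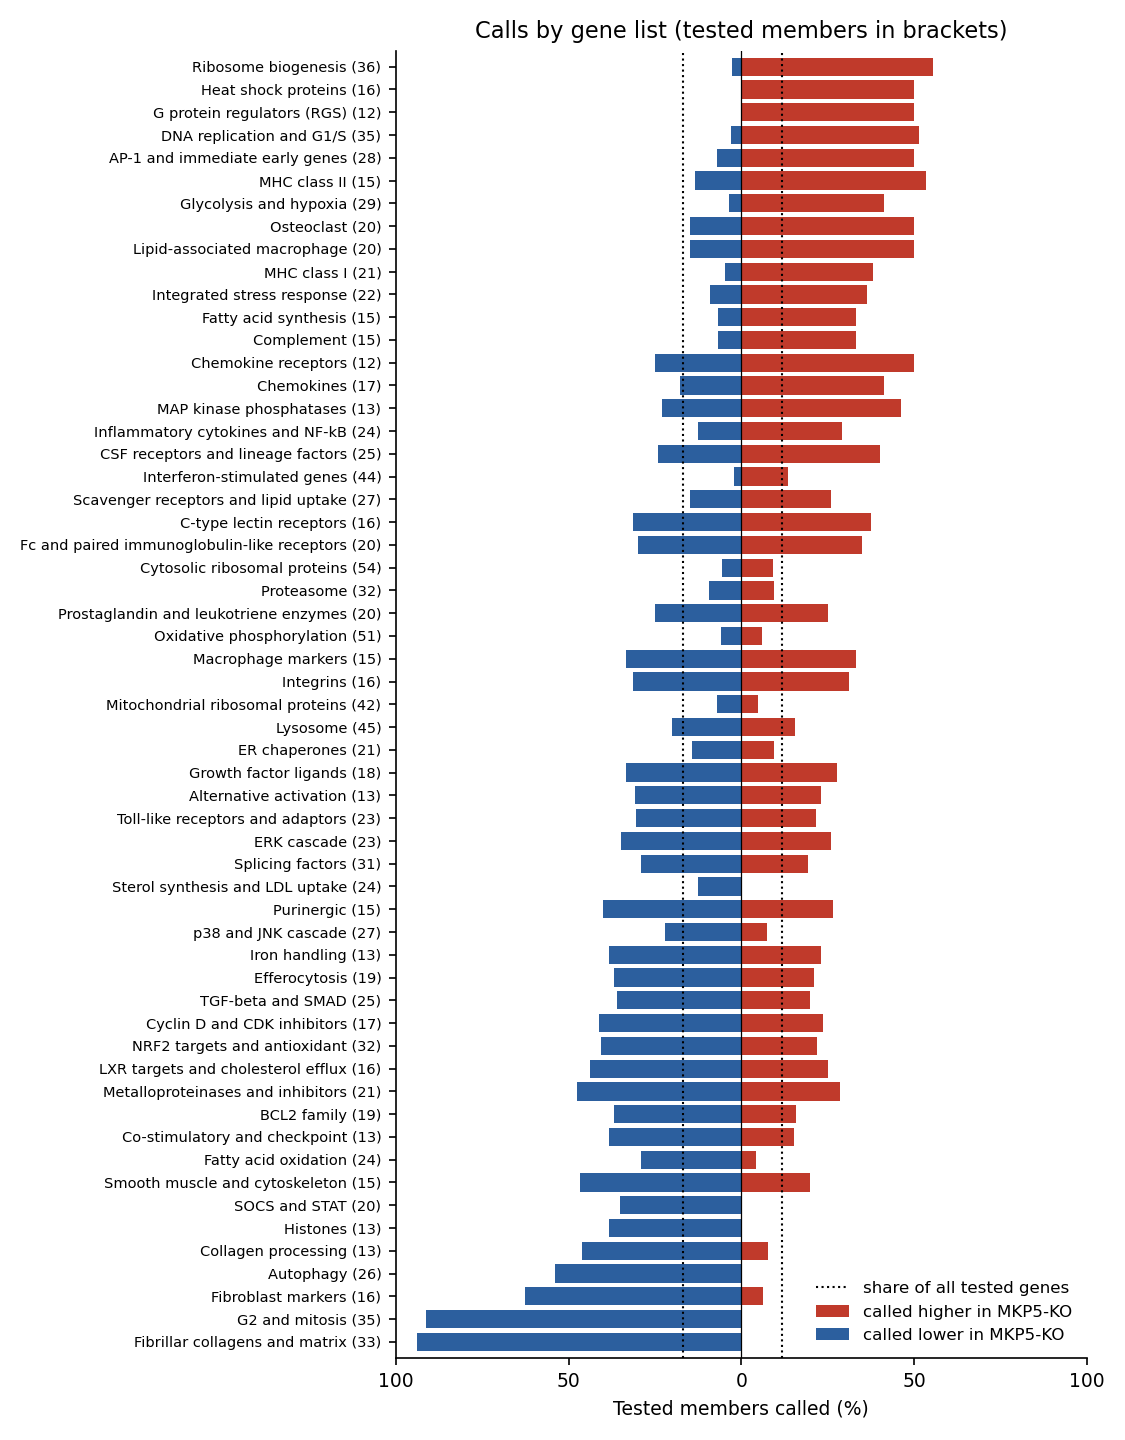
Bars give the percentage of tested members of each list with at least 12 tested members that were called higher (red, right) or lower (blue, left) in MKP5-KO, with the number tested in brackets; dotted lines mark the 11.8% and 16.8% of all tested genes. Matrix and mitotic genes stand at the lower end, with more than 90% of their members called lower. Ribosome biogenesis, heat shock, G protein regulator, replication, immediate early and class II genes stand at the upper end.

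Neutrophil markers were mostly not called. Of 11 tested neutrophil markers Mmp8 was lower (-1.33) and the others were not called, with a summed level of 74.2, 69.9 and 77.2 CPM in WT and 53.7, 55 and 50.5 in MKP5-KO, most of it from Csf3r and Mmp8. Y-linked genes were read in all 6 libraries. Of these, Kdm5d was called lower (-0.41, adjusted p = 0.0315), a call lost in 5 of 19 alternatives (highest adjusted p 0.101). Ddx3y, Uty and Eif2s3y were not called (-0.17, -0.24 and -0.09). Xist had 2, 55 and 39 reads in WT and 90, 66 and 82 in MKP5-KO, with WT replicate 1 apart from the rest. Its groups did not overlap, and the difference was not called (adjusted p = 0.0542). A part of the sex of the source animals in the genotype differences was not tested.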

How the data were processed

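RNA of bone marrow-derived macrophages was extracted with an RNeasy kit and sequenced by a service provider, per the labels' protocols. The submitters' processing notes name STAR and GRCm39. Versions, annotation, counting tool and strand setting were not given in the sources used here. The values deposited by the authors are log2 normalized counts per gene, scaled with TMM factors per the file headers. They were found to hold log2 of reads plus 0.5 per kilobase of gene, and whole reads came out for 96.8% of the 26156 genes with a read, within 0.02 reads or the rounding of the files, with GENCODE M21 exon lengths or fitted lengths. Of these genes 22597 had an annotated length. For the other 2734 the length was fitted so that reads came out whole, so they do not check the scale. A further 720 abundant genes had too many reads for this check, and their CPM rest on the annotated length; the log2 differences do not use it. CPM are these reads per scaled library size. The 3 groups of 3 libraries entered 1 limma fit (3.58.1 in R 4.3.3, statmod 1.5.0, with trend and robust options) of the deposited log2 values. The filter for testing asked for 10 or more reads (scaled to the median depth) in 3 or more libraries and a total of 15 or more. P-values were adjusted by Benjamini-Hochberg. MKP5-KO was compared with WT at 24 h.

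The gene lists and the genes named were chosen with earlier results of these data known. Named were Dusp10, the 20 largest changes in each direction and the 10 largest in CPM among called genes of at least 5 CPM, and up to 5 members per list by smallest adjusted p; other members were named for their role after their values had been seen. Alternatives covered scaling, prior reads, filters, libraries in the fit, replicate number as a block, equal depth, moderation, weights and leaving out each library.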

Additional observations from a re-analysis of the deposited data

How the results depend on the processing

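Across 19 alternatives no called gene of the lists or among the named genes reversed its direction, and 429 of 615 were called under every alternative that tested them. Genes called higher numbered 1176 to 1626 and genes called lower 1645 to 2403 when each library was left out in turn; the smallest lower count came without WT 24 h replicate 2. With voom weights, chosen after seeing the data, 1872 were higher and 2801 lower. Of 111 counts by list 53 stayed within 1.5 times under all alternatives. Matrix genes called lower numbered 18 when a mean of at least 5 CPM was required, a filter that leaves fewer of them tested. With a library left out in turn, ribosome biogenesis genes called higher numbered 13 to 17 and autophagy genes called lower 9 to 14. With the replicate number as a block 4373 genes were called in place of 4215. The deviations of same-numbered WT and MKP5-KO libraries at 24 h correlated at 0.142, 0.014 and 0.042, and those of other-numbered ones at -0.131 to 0.093. MKP5-KO replicate 1 correlated at 0.191 with WT 0 h replicate 1. The labels name no pairing, and whether same-numbered libraries were handled together was not tested. Both count-based tests of the plan were not run on the reads recovered from the log2 values. Depth limits genes with few reads: at Dusp10's level the knockout libraries hold 4 to 6 reads.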
